A study of Mus musculus with 6 samples.

Results

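MYC, MYCN and MYCL are basic helix-loop-helix leucine zipper proteins that bind DNA as dimers with MAX, at E-box sequences such as CACGTG, and are known for raising the transcription of genes of growth and metabolism. The MXD proteins (MXD1, MXD3, MXD4 and MXI1), MNT and MGA also pair with MAX and act mainly as repressors, MXD and MNT through SIN3 corepressors and MGA within a variant Polycomb complex, PRC1.6. In mouse embryonic stem cells (mESCs), MYC and MYCN are known for their part in proliferation and self-renewal, and MGA and PRC1.6 for holding germ line genes silent.

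The 10 genes Myc, Mycn, Mycl, Max, Mxd1, Mxd3, Mxd4, Mxi1, Mnt and Mga were taken by name from 53390 genes of the GENCODE M21 annotation. All 10 were among the 18177 genes that passed the filter on low counts and were tested. Poly(A) RNA was sequenced from TKO mESCs, in which Dnmt1, Dnmt3a and Dnmt3b are all inactivated, so every library here shares the loss of these DNA methyltransferases and no wild-type cells enter the comparison. The cells are 1 line derived from male J1 mESCs of the 129S4/SvJae strain, grown without feeders on gelatin, and each medium has 3 biological replicates. TKO-serum cells grew with 15% fetal calf serum and LIF at 500 U/ml. TKO-2i cells grew in N2B27 without serum, with the MEK inhibitor PD0325901 at 1 µM, the GSK3 inhibitor CHIR99021 at 3 µM and LIF at 1000 U/ml. The effects of the inhibitors, of serum and of the LIF dose cannot be told apart. Total estimated counts were 46228700, 44180642 and 43896549 in TKO-2i replicates 1, 2 and 3 and 38274042, 51932739 and 44827609 in TKO-serum replicates 1, 2 and 3.

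TKO-2i replicate 2 stood farther from the other TKO-2i libraries than they did from each other. The mean chi-square per gene between its counts and those of replicates 1 and 3 was 42.0 and 25.6, against 6.82 between replicates 1 and 3 and 4.47 to 14.4 among TKO-serum libraries. The log2 fold changes of Mga, Mxd3 and Mycl, the ratio of the sum of Mnt and Mga, and list counts that moved by over 1.5 times without this library are given with and without it.

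Reads of the targeted genes were present in all libraries. Dnmt1 had 29.1, 34.6 and 29.3 TPM (a level scaled for transcript length and for the sum of each library) in TKO-2i and 25.7, 28.6 and 27.9 TPM in TKO-serum. Dnmt3a had 4.30, 5.19 and 4.54 TPM in TKO-2i and 21.3, 23.0 and 22.7 TPM in TKO-serum, and Dnmt3b had 6.71, 9.53 and 8.49 TPM against 18.8, 20.9 and 20.7 TPM. These are sums over whole genes, and reads outside the deleted parts check nothing of the genotype. Dnmt3l, the cofactor that was not deleted, had 45.2, 46.5 and 49.2 TPM in TKO-2i and 486.0, 506.1 and 503.6 TPM in TKO-serum. Prdm14, a regulator of naive pluripotency, had 26.9, 30.7 and 25.3 TPM in TKO-2i and 10.7, 12.8 and 12.8 TPM in TKO-serum. Neither gene overlapped between media, so the libraries fell apart by medium as labelled.

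Markers of pluripotent cells were abundant in every library. The 10 markers summed to 3170, 3175 and 2982 TPM in TKO-2i and 3778, 3903 and 3824 TPM in TKO-serum, with Pou5f1 the most abundant at 982.1 to 1057 TPM in TKO-2i and 1249 to 1253 TPM in TKO-serum. Of these 10, 2 were called higher in TKO-2i (Nanog and Esrrb), 6 lower and 2 (Pou5f1 and Fgf4) were not called. Fibroblast and feeder markers were low, at 5.98 to 6.81 summed TPM in TKO-2i and 9.42 to 9.90 in TKO-serum, with Thy1 the most abundant. Of 5 tested markers, 3 were called lower, 1 higher and 1 was not called. Markers of other cells also moved with the medium. The 8 markers of 2-cell-like cells summed to 1.79 to 2.17 TPM in TKO-2i and 51.1 to 61.4 TPM in TKO-serum, with Zscan4f the most abundant over the 6 libraries, and all 8 were called lower in TKO-2i. Primitive endoderm markers summed to 4.70 to 5.85 TPM in TKO-2i and 14.8 to 19.4 TPM in TKO-serum, with Dab2 the most abundant over the 6 libraries. Of 7 tested markers of this list, 6 were called lower and 1 was not called. Neural markers summed to 89.2 to 93.2 TPM in TKO-2i and 140.9 to 145.4 TPM in TKO-serum, most of it Tubb3, and of 7 tested markers 6 were called lower and Nes was called higher. The sum of mesoderm markers was higher in TKO-2i, at 50.8 to 59.4 TPM against 14.4 to 15.0 TPM, but it rested on Myl7, T and Eomes, and of 7 tested markers 3 were called higher, 2 lower (Hand1 and Tbx6) and 2 were not called. The sum of trophoblast markers was also higher, at 81.3 to 86.4 TPM against 49.6 to 52.4 TPM, but it rested on Krt8, Tfap2c and Cdx2, and of 7 tested markers 3 were called higher, 3 lower (Gata3, Krt7 and Krt18) and 1 was not called. No marker of any list was at 0 in all 6 libraries. The part of these cells in the differences below was not tested, and in bulk RNA from an equal input of 500 ng, fewer cells that express a gene and less RNA per cell cannot be told apart.

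Of the 10 genes, 7 were called at an edgeR adjusted p under 0.05, beside 62.5% of all tested genes. Of these, 6 were lower in TKO-2i (Myc, Mycn, Max, Mxd1, Mxd4 and Mxi1), where 30.6% of all tested genes were called lower, and Mnt alone was higher, where 31.9% were called higher. The same 7 genes did not overlap between media in CPM (counts scaled to library size, with TMM factors), beside 67.5% of all tested genes. With so many genes changed, the count of 7 lies near the background, so each gene is given below with the size of its difference.

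Myc and Mycn, which code for activators, both differed by more than 2-fold. Myc (ENSMUSG00000022346, chr15:61985391-61990374, plus strand, GRCm38) had 12.2, 13.5 and 12.9 TPM in TKO-2i replicates 1, 2 and 3 and 29.8, 32.0 and 28.0 TPM in TKO-serum replicates 1, 2 and 3. Every TKO-2i library lay below every TKO-serum library, and the highest TKO-2i value was under the lowest TKO-serum value by far more than the spread within a medium. The log2 fold change of TKO-2i over TKO-serum was -1.14 ± 0.063 (SE; edgeR adjusted p = 1.3e-06), a level 2.21-fold higher in serum.

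Mycn (ENSMUSG00000037169, chr12:12936093-12941914, minus strand) had 53.1, 57.3 and 59.2 TPM in TKO-2i and 130.9, 140.2 and 133.5 TPM in TKO-serum. The media were again wholly separate, with replicates close together in each. Mycn lies on chromosome 12, as does Max. Its log2 fold change was -1.12 ± 0.074 (SE; edgeR adjusted p = 3.8e-06), a level 2.17-fold higher in serum. The differences of Myc and Mycn were larger in size than those of 79.5% and 79.1% of all tested genes.

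Mycl (ENSMUSG00000028654, chr4:122995652-123002485, plus strand), the least abundant MYC gene, had 9.55, 10.3 and 8.79 TPM in TKO-2i and 10.7, 10.8 and 11.3 TPM in TKO-serum. These TPM values did not overlap, but the CPM values did, at 25.9, 23.0 and 24.1 in TKO-2i and 26.7, 24.4 and 26.4 in TKO-serum. With a log2 fold change of -0.09 ± 0.066 (SE; edgeR adjusted p = 0.29), no difference was detected for Mycl. The value was -0.15 without TKO-2i replicate 1 and -0.04 without TKO-2i replicate 2, and it was not called in either. Under other processing settings with all libraries kept, the value ran from -0.19 to -0.09.

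Max (ENSMUSG00000059436, chr12:76937269-76962201, minus strand), the shared partner, had 50.4, 52.2 and 53.5 TPM in TKO-2i and 62.4, 69.9 and 66.5 TPM in TKO-serum. All TKO-2i libraries were below all TKO-serum libraries, by a smaller margin than for Myc and Mycn. The log2 fold change was -0.39 ± 0.047 (SE; edgeR adjusted p = 0.00013). With all libraries kept, it ran from -0.43 to -0.25 under the other processing settings. The gene Gm47218 lies on the same strand within Max and had at most 2.11 TPM in any library.

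Among the MXD repressors, Mxd4 (ENSMUSG00000037235, chr5:34173883-34187720, minus strand) differed most. It had 1.00, 1.86 and 1.07 TPM in TKO-2i and 5.24, 4.33 and 4.16 TPM in TKO-serum, from 159, 182.5 and 138 estimated counts against 513, 669 and 565.04. TKO-2i replicate 2 was the highest of its medium in TPM and still under each serum library. The log2 fold change was -1.80 ± 0.10 (SE; edgeR adjusted p = 1.6e-06), larger in size than for 88.8% of all tested genes and the largest of the 10.

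Mxi1 (ENSMUSG00000025025, chr19:53310518-53375810, plus strand) had 8.45, 8.54 and 7.80 TPM in TKO-2i and 10.1, 10.9 and 10.7 TPM in TKO-serum. The media did not overlap, and the log2 fold change was -0.26 ± 0.051 (SE; edgeR adjusted p = 0.0021). Mxd1 (ENSMUSG00000001156, chr6:86647042-86669161, minus strand) had 8.41, 9.55 and 7.43 CPM in TKO-2i and 10.4, 10.98 and 9.57 CPM in TKO-serum. The highest TKO-2i library and the lowest TKO-serum library of Mxd1 all but touched, and in TPM they overlapped, at 2.40, 3.21 and 2.11 against 3.08, 3.56 and 3.09. Its log2 fold change was -0.28 ± 0.10 (SE; edgeR adjusted p = 0.042), and the call was lost without TKO-2i replicate 1 (log2 fold change -0.30) or replicate 3 (-0.20), and without TKO-serum replicate 1 (-0.28) or replicate 2 (-0.24).

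Mxd3 (ENSMUSG00000021485, chr13:55325168-55329823, minus strand) had 9.35, 6.91 and 8.51 CPM in TKO-2i and 11.2, 8.55 and 9.73 CPM in TKO-serum. The media overlapped in CPM and not in TPM, at 7.76 to 8.35 against 9.65 to 11.2, and Mxd3 was not called (log2 fold change -0.25 ± 0.13 SE; edgeR adjusted p = 0.15). With limma on log2(TPM + 1) it was called (-0.33), and in edgeR the value was -0.12 without TKO-2i replicate 2 and -0.14 without TKO-serum replicate 1. Prelid1 overlaps Mxd3 on the opposite strand at 168.4 to 187.7 TPM. The libraries were strand-specific, but the strand setting of the quantification is not given in the sources used here, so reads of the overlap cannot be assigned with certainty.

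Mnt (ENSMUSG00000000282, chr11:74830920-74845725, plus strand), a broadly expressed repressor, was the only one of the 10 called higher in TKO-2i. It had 85.3, 84.0 and 89.6 CPM in TKO-2i and 67.6, 64.7 and 72.5 CPM in TKO-serum. The media did not overlap, and the log2 fold change was 0.34 ± 0.060 (SE; edgeR adjusted p = 0.0012). Chromosome 11 as a whole ran higher in TKO-2i, with a median log2 fold change of 0.26 over its 1398 other tested genes, and subtracting it left 0.08 for Mnt. Chromosome 6 did so as well, with a median of 0.41 over 865 other tested genes, and subtracting it gave -0.70 for Mxd1.

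Mga (ENSMUSG00000033943, chr2:119897228-119969581, plus strand), the scaffold of PRC1.6, had 310.0, 487.2 and 352.3 CPM in TKO-2i and 344.9, 403.8 and 364.2 CPM in TKO-serum. Replicate 2 was the highest library in each medium, and TKO-2i replicate 2 lay above all others, so the media overlapped. The log2 fold change was 0.05 ± 0.15 (SE; edgeR adjusted p = 0.80), and without TKO-2i replicate 2 it was -0.16 (edgeR adjusted p = 0.076). Without TKO-serum replicate 1 it was 0.00, just on the negative side, so neither the presence nor the direction of a difference was established for Mga.

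**Figure D1:**
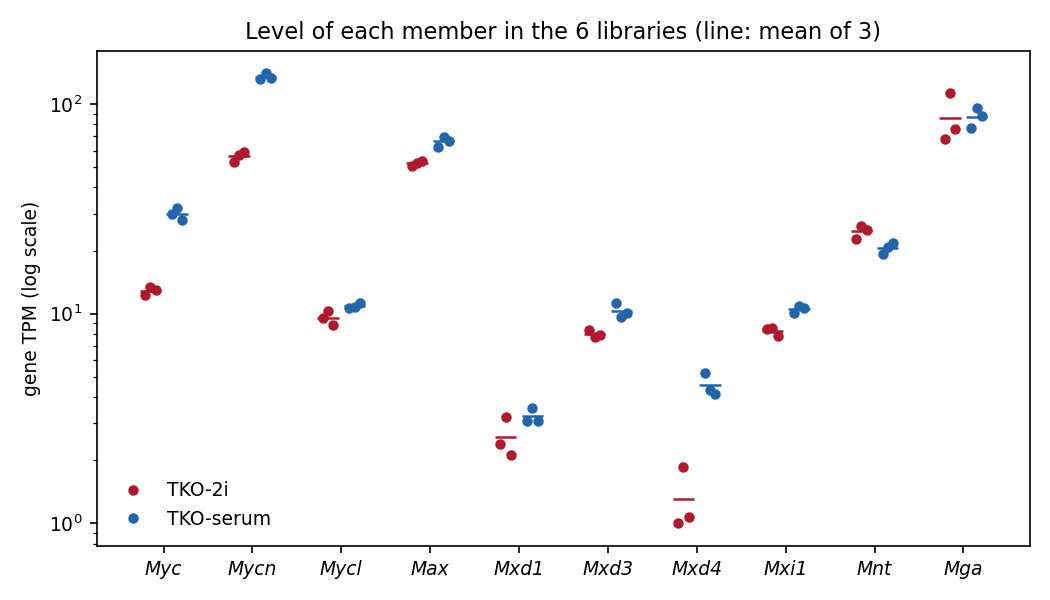
TPM of each of the 10 genes (log axis), with 1 point per library, TKO-2i in red and TKO-serum in blue, and a line at the mean of the 3 libraries. Myc, Mycn and Mxd4 are separate between media by the widest gaps, and the TKO-2i points of Mga range from 68.5 to 112.9 TPM.

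**Figure D2:**
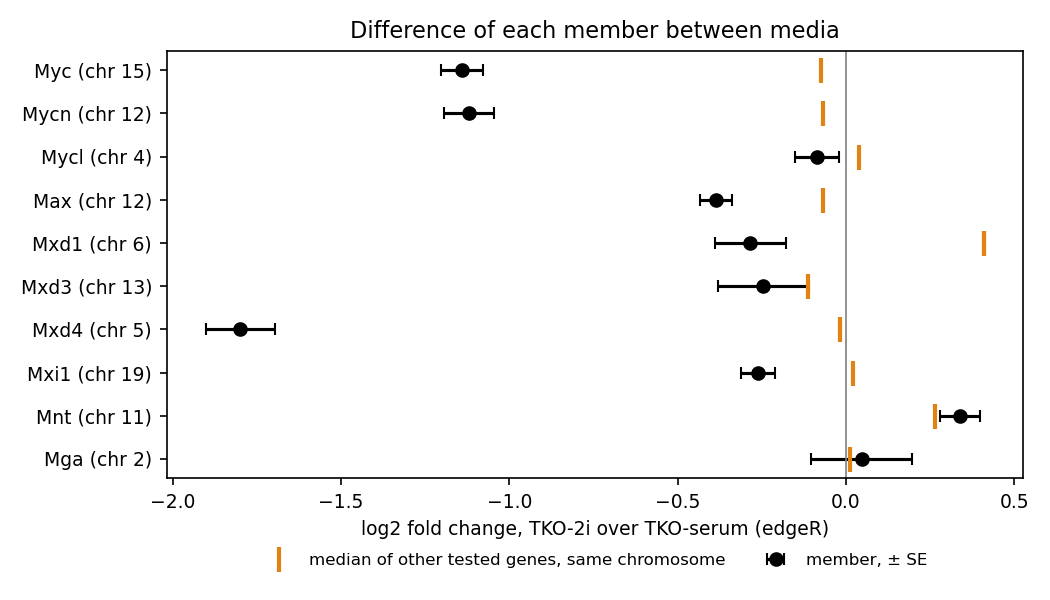
Log2 fold change of TKO-2i over TKO-serum (edgeR) for each of the 10 genes, with bars of 1 SE, and in orange the median of the other tested genes of the same chromosome. Mxd4, Myc and Mycn lie at -1.80, -1.14 and -1.12, and Mnt lies at 0.34 beside a chromosome 11 median of 0.26.

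Levels were compared between genes in TPM only. In TKO-serum, Mycn had the highest mean (134.9 ± 4.78 TPM, SD, n = 3), followed by Mga (86.8 ± 9.66), Max (66.3 ± 3.72), Myc (29.9 ± 1.97) and Mnt (20.6 ± 1.24), and the ranges of these neighbours did not overlap. Mycl (10.9 ± 0.343), Mxi1 (10.5 ± 0.394) and Mxd3 (10.3 ± 0.824) overlapped in the order given, and Mxd4 (4.58 ± 0.583) and Mxd1 (3.24 ± 0.276) were lowest and apart from each other. In TKO-2i, Mga came before Mycn, with means of 85.8 ± 23.8 and 56.5 ± 3.15 TPM and separate ranges, while Mycn overlapped with Max at 52.1 ± 1.56 TPM. Below them came Mnt (24.7 ± 1.77) and Myc (12.9 ± 0.622), in the reverse order of serum, and Mxd1 (2.57 ± 0.568) came before Mxd4 (1.31 ± 0.474). Myc thus passed from above Mnt to below it and Mxd4 from above Mxd1 to below it. The place of Mga above Mycn in TKO-2i holds for whole genes, which include noncoding transcripts, and its most abundant coding transcript, Mga-201, had 28.4, 47.8 and 30.1 TPM there, below Mycn in each library.

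Families were summed within each library, a measure that does not depend on scaling between libraries when taken as a ratio. Relative to the MXD genes and to Max, the MYC genes were lower in TKO-2i. Their sum was 74.8, 81.1 and 80.9 TPM in TKO-2i and 171.4, 182.9 and 172.9 TPM in TKO-serum. The sum of the 4 MXD genes was 20.2, 21.4 and 18.9 TPM in TKO-2i and 29.7, 28.4 and 28.0 TPM in TKO-serum, and that of Mnt and Mga was 91.3, 139.1 and 101.1 TPM against 96.0, 116.9 and 109.4 TPM. The MYC and MXD sums did not overlap between media, and the sum of Mnt and Mga did. The ratio of serum over 2i for the sum of Mnt and Mga was 0.972 with TKO-2i replicate 2 and 1.12 without it, so its direction rests on that library. MYC transcripts outnumbered MXD transcripts by 3.71, 3.79 and 4.28 times in TKO-2i and by 5.78, 6.44 and 6.17 times in TKO-serum. They outnumbered Max by 1.48, 1.55 and 1.51 times in TKO-2i and by 2.75, 2.62 and 2.60 times in TKO-serum. The Max values include Max-206, a short transcript of few counts that is treated below. It had 7.48, 6.55 and 12.8 TPM in TKO-2i and 5.35, 6.92 and 6.39 TPM in TKO-serum, so the size of the ratio to Max is uncertain. Both ratios, to the MXD genes and to Max, were lower in every TKO-2i library than in any TKO-serum library. These are descriptions of RNA, with no test over the sums, and protein was not used here.

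Myc made up 18.7%, 19.0% and 17.9% of Myc plus Mycn in TKO-2i and 18.6%, 18.6% and 17.4% in TKO-serum, and these shares overlapped. Mycl made up 12.8%, 12.7% and 10.9% of the MYC family in TKO-2i and 6.22%, 5.88% and 6.54% in TKO-serum, with no overlap.

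By mean TPM, each gene had the same most abundant transcript in both media, but some shares did not overlap between media. The share of Max-201 ran from 57.8% to 67.5% in TKO-2i and from 73.0% to 75.6% in TKO-serum, and that of Myc-204 from 12.2% to 18.4% and from 6.07% to 10.6%. The shares of Mycn-202, Max-206, Mxd3-203 and Mga-208 did not overlap either, and no share was tested. Myc-201, with a coding part of 454 residues, held 50.8 ± 3.57% of Myc TPM in TKO-2i and 55.3 ± 4.72% in TKO-serum (SD, n = 3), and Myc-202, with 439 residues, held 29.8 ± 1.15% and 32.7 ± 4.36%. Myc-204, which starts within the gene, had 1.68, 1.65 and 2.37 TPM in TKO-2i and 1.81, 3.17 and 2.96 TPM in TKO-serum. Its levels overlapped between media while those of Myc-201 and Myc-202 did not. Mycn-201 held 90.5 ± 1.99% and 87.7 ± 1.88% of Mycn, and Mycn-202 held 6.92 ± 2.07% and 10.2 ± 1.81%. Mycl was divided between Mycl-202 and Mycl-201 in both media, at 59.3 ± 6.07% and 38.03 ± 4.95% in TKO-2i and 63.5 ± 7.15% and 33.5 ± 6.40% in TKO-serum. Max-201, of 151 residues, lacks a short coding exon that Max-202, of 160 residues, includes. It had 33.7, 35.3 and 30.9 TPM in TKO-2i and 45.6, 52.8 and 49.8 TPM in TKO-serum, whereas Max-202 had 7.46, 7.49 and 8.56 TPM against 10.1, 7.05 and 7.57 TPM. The media were separate for Max-201 and overlapped for Max-202. Max-206, an annotated decay target of 203 bases, held 17.1 ± 6.01% and 9.36 ± 0.696% of the gene. These shares rest on 13.7 to 29.97 estimated counts in TKO-2i and 11.3 to 16.8 in TKO-serum, made large in TPM by the short length, and they enter the share of Max-201, so both are uncertain.

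Mxi1 was carried mainly by Mxi1-202, which has 192 residues and starts downstream of Mxi1-201, which has 295. Mxi1-202 held 78.0 ± 3.96% in TKO-2i and 82.0 ± 5.21% in TKO-serum, Mxi1-201 held 19.3 ± 3.04% and 16.4 ± 5.10%, and only 3 of the 9 annotated Mxi1 transcripts carried values here. Mxd1-201 and Mnt-201 held over 90% of their genes in every library. Mxd3-201 held 87.9 ± 4.99% and 83.8 ± 1.31% of Mxd3, and Mxd3-203, a retained intron, the next largest share, at 7.27 ± 0.224% and 11.4 ± 2.20%. Mxd4-202 ranged from 0 to 32.9% of Mxd4 among TKO-2i libraries and from 0 to 29.5% among TKO-serum libraries, so its share is not stable between replicates, while Mxd4-201 was separate between media at 0.960, 1.17 and 0.852 TPM against 3.58, 4.13 and 3.78 TPM. Of Mga TPM, 41.2 ± 1.39% and 41.0 ± 1.01% came from Mga-201, which codes for 3003 residues, 21.98 ± 2.87% and 23.1 ± 1.61% from the noncoding Mga-209, and 15.2 ± 0.802% and 17.5 ± 0.843% from the noncoding Mga-208. The level of Mga in TPM is therefore not the level of its coding RNA.

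Genes whose profile over the 6 libraries lay nearest to each MYC gene were taken from 9067 protein-coding genes that averaged 10 CPM or more, by the root mean square difference of centred log2 CPM. Nearest to Myc were Nup62cl (0.04), Pnp, a purine nucleoside phosphorylase (0.04), Hunk (0.05), Rasip1 (0.05) and Pnma2 (0.05), where the median over all these genes was 0.64. Nearest to Mycn were S100a6 (0.05), Rasip1 (0.05), Myc itself (0.06), Fxyd6 (0.06) and the kinase gene Pim3 (0.06), with a median of 0.63. Nearest to Mycl were Mvp (0.01), Mllt1 (0.03), Zfp622 (0.03), Pip4p1 (0.03) and the cyclin gene Ccnb1 (0.03), with a median of 0.20. With 3 libraries in each of 2 media, likeness mostly reflects a like difference between media.

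The genes that share the pathway moved in both directions, and each list below is set beside all tested genes, of which 31.9% were higher, 30.6% were lower and the median log2 fold change was 0.01. Some of the genes named lie on chromosomes that ran higher in TKO-2i as a whole, with medians of 0.41 for chromosome 6 (Fbxl14, Igf2bp3, Pcbp1, Cbx3, Nop2, Mthfd2, Impdh1, Phb2, Gapdh, Ccnd2 and Mad2l1) and 0.26 for chromosome 11 (Mlx, Kat2a, Npm1, Nme2, C1qbp and Etv4). Their values below are not corrected for this, and the place of a gene among the largest rises can depend on it. In the MLX branch, a parallel network of related proteins, Mlx (log2 fold change -0.29 ± 0.058, SE) and its nutrient-sensing partner Mlxip (-0.63 ± 0.071) were lower and Mlxipl (0.36 ± 0.062) was called higher in counts. In TPM Mlxipl was not higher, at 17.9 in TKO-2i and 18.2 in TKO-serum, and with limma on TPM or counts rebuilt from TPM and length 0 of the 3 were called higher. Of 16 genes of SIN3 and NCoR corepressors, 5 were higher, 3 lower and 8 not called, with a median of 0.08, and the higher count was 3 without TKO-2i replicate 3 and 2 with limma on log2(TPM + 1). Brms1 (0.34) and Sap18 (0.30) rose most and Arid4b (-0.40) and Ing2 (-0.23) fell most, and the most abundant, the histone chaperone gene Rbbp4, had 238.9 TPM in TKO-2i and 260.1 in TKO-serum. Of 19 MYC coactivators and chromatin partners, 9 were higher, 0 lower and 10 not called, with a median of 0.11 that ran from 0.05 to 0.20 with 1 library left out and was -0.03 with limma on log2(TPM + 1). Beside the 0 lower by edgeR, 0 were lower at an unadjusted p under 0.05, 2 were called lower by DESeq2 and 1 by limma, and 3 by edgeR without TKO-2i replicate 2. Wdr5, a scaffold of histone methyltransferases, had 424.7 CPM in TKO-2i and 245.7 in TKO-serum (log2 fold change 0.79 ± 0.054, SE; edgeR adjusted p = 4.5e-06), and the acetyltransferase gene Kat2a had 260.4 and 153.7 CPM (0.76 ± 0.056). Over the 6 libraries Actl6a was the most abundant, at 157.1 and 168.6 TPM, and it was not called. Wdr5 was above it in TKO-2i, at 189.8 TPM.

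Of 25 genes of MYC protein stability, 8 were higher, 7 lower and 10 not called, with a median of -0.08, and the lower count was 3 without TKO-serum replicate 1 and 4 without TKO-serum replicate 3. With limma on log2(TPM + 1), 3 were higher and 6 lower, with a median of -0.15. The largest rises were Fbxl14 (log2 fold change 0.88 ± 0.046, SE), a ubiquitin ligase subunit, and Gsk3b (0.68 ± 0.080), from 46.5 CPM in TKO-serum to 74.4 in TKO-2i. Gsk3b codes for a form of GSK3, the kinase that CHIR99021 inhibits. Gsk3a, the other GSK3 gene of the list, was not called (-0.04 ± 0.056). The largest falls were Usp28 (-0.76 ± 0.049), a deubiquitinase, and Skp2 (-0.47 ± 0.051), a ubiquitin ligase subunit, and the most abundant was Usp7, at 156.5 and 176.6 TPM. Of 12 genes of MYC mRNA translation and decay, 2 were higher, 1 lower and 9 not called, with a median of 0.00. Igf2bp3, an RNA-binding protein, had 187.9 CPM in TKO-2i and 90.4 in TKO-serum (1.05 ± 0.048), Pcbp1 rose (0.30, which is below the median of its chromosome) and Pcbp2 fell (-0.22), and Pabpc1, the most abundant at 1051 and 1106 TPM, was not called.

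Of 13 PRC1.6 partners, 8 were higher, 2 lower and 3 not called, with a median of 0.33. E2f6 (log2 fold change 0.83 ± 0.051, SE) and Wdr5 rose most, and Tfdp2 (-0.81 ± 0.079) and L3mbtl2 (-0.60 ± 0.062), a subunit that joins the complex to chromatin, fell most. Cbx3, the most abundant, had 363.9 and 232.1 TPM (0.73 ± 0.048). Of 20 germ line genes repressed by MGA and PRC1.6, 13 were lower in TKO-2i, 4 higher and 3 not called, with a median of -1.57. Mael, a gene of the piRNA pathway, had 0.943 CPM in TKO-2i and 11.8 in TKO-serum (-3.64 ± 0.092; edgeR adjusted p = 3.5e-08) and Tex101 had 0.409 and 3.10 CPM (-2.90 ± 0.23). Against this direction, Dazl, a germ cell RNA-binding protein and the most abundant of the list, had 148.3 CPM in TKO-2i and 45.2 in TKO-serum (1.71 ± 0.059; edgeR adjusted p = 1.3e-07), and Majin rose (0.70 ± 0.15). All libraries lack DNA methylation enzymes, which also act on such genes.

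The lists of known MYC targets moved in both directions. Of 36 genes of the nucleolus and ribosome biogenesis, 7 were higher, 12 lower and 17 not called, with a median of -0.08. Nolc1 (log2 fold change -0.43 ± 0.060, SE) and Utp20 (-0.39 ± 0.084) fell most, Nop2 (0.59 ± 0.059) and Rrs1 (0.42 ± 0.060) rose most, and Npm1, the most abundant at 4294 and 4542 TPM, was not called. The lower count was 19 with limma on log2(TPM + 1). Of 29 genes of nucleotide and polyamine synthesis, 12 were higher, 7 lower and 10 not called, with a median of 0.06. Odc1, the ornithine decarboxylase of polyamine synthesis and a widely used MYC target, had 447.3 CPM in TKO-2i and 719.1 in TKO-serum (-0.68 ± 0.055; edgeR adjusted p = 1.1e-05), and Prps2 fell as well (-0.63 ± 0.056). In the same list Mthfd2 (0.72 ± 0.061) and Impdh1 (0.53 ± 0.058) rose most, and Nme2, the most abundant, had 851.1 and 650.5 TPM (0.49 ± 0.097).

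Of 24 genes of translation and chaperones, 5 were higher, 5 lower and 14 not called, with a median of -0.01. Phb2 (log2 fold change 0.91 ± 0.098, SE) and C1qbp (0.41 ± 0.066) rose most and Hspd1 (-0.37 ± 0.058) and Farsa (-0.32 ± 0.092) fell most. Hsp90ab1, the most abundant, had 2473 and 2996 TPM (-0.19 ± 0.053). The lower count was 11 with limma on log2(TPM + 1), 3 without TKO-2i replicate 3, 1 without TKO-serum replicate 1 and 3 without TKO-serum replicate 3, and the higher count was 3 without TKO-2i replicate 1 or replicate 3. Of 20 genes of glycolysis and mitochondria, 9 were higher, 6 lower and 5 not called, with a median of 0.12. With limma on log2(TPM + 1) the higher count was 4 and the median -0.01, and in edgeR the higher count was 5 without TKO-2i replicate 3 or without TKO-serum replicate 1 or replicate 3. The glucose transporter gene Slc2a1 had 249.4 CPM in TKO-2i and 543.1 in TKO-serum (-1.12 ± 0.071; edgeR adjusted p = 3.1e-06) and Eno1 had 856.7 and 1401 (-0.71 ± 0.095). Hk1, a hexokinase, went the other way, with 174.0 and 54.7 CPM (1.67 ± 0.060; edgeR adjusted p = 1.6e-07), as did the glutamine transporter gene Slc1a5 (1.01 ± 0.063), and Gapdh, the most abundant at 4092 and 4227 TPM, was not called.

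Of 22 cell cycle targets, 7 were higher, 5 lower and 10 not called, with a median of 0.07. Id2, an inhibitor of helix-loop-helix proteins, had 1.21 CPM in TKO-2i and 28.0 in TKO-serum (log2 fold change -4.53 ± 0.089, SE; edgeR adjusted p = 1.6e-08), and Ccnd2 had 5.86 and 20.2 CPM (-1.79 ± 0.075). Mad2l1 (0.53 ± 0.052) and Ccnd1 (0.52 ± 0.061) rose most, and Cdk4, the most abundant at 635.9 and 641.1 TPM, was not called. The higher count was 11 without TKO-2i replicate 2. Of 10 genes that MYC represses with MIZ1, 6 were higher, 3 lower and 1 not called, with a median of 0.29. With other processing settings and all libraries kept, the median ran from 0.17 to 0.29 and the higher count from 4 to 6. The cell cycle inhibitor genes Cdkn1a, the most abundant (141.2 and 54.4 CPM, 1.38 ± 0.071), and Cdkn2c (2.99 and 0.961 CPM, 1.63 ± 0.15) rose most, and Cebpa (-1.93 ± 0.12) and Ndrg2 (-0.56 ± 0.096) fell most.

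The last 3 lists hold targets of pathways on which the media differ. Of 15 ERK feedback and immediate early genes, which respond to the pathway that PD0325901 blocks, 12 were lower, 1 higher and 2 not called, with a median of -1.03, and 2 were higher without TKO-2i replicate 2. The phosphatase genes Dusp4 (2.01 and 18.9 CPM, log2 fold change -3.23 ± 0.094, SE) and Dusp6 (4.78 and 36.2 CPM, -2.92 ± 0.061) fell most, Etv4 rose (0.49 ± 0.055), and Etv5, the most abundant, fell from 193.7 to 132.8 TPM. Of 13 tested WNT and beta-catenin targets, 9 were higher, 1 lower and 3 not called, with a median of 0.77, and Lgr5 was not tested. That median ran from 0.48 to 0.77 under other processing settings with all libraries kept. Cdx1 had 45.8 CPM in TKO-2i and 0.199 in TKO-serum (7.85 ± 0.17) and T had 13.7 and 0.287 CPM (5.58 ± 0.32), while Lef1 was lower (-1.09 ± 0.19). T and Cdx2, which are in this list, are also counted among the mesoderm and trophoblast markers above. Ccnd1 was the most abundant over the 6 libraries, at 61.6 and 46.6 TPM. By mean TPM, Tcf7 (63.5) was above it in TKO-2i and Notum (51.0) in TKO-serum. Of 10 LIF and STAT3 targets, 4 were higher, 5 lower and 1 not called, with a median of 0.01, and the lower count was 3 without TKO-serum replicate 1 or replicate 3. Tfcp2l1 had 981.6 and 251.5 CPM (1.96 ± 0.086) and Klf4 rose (0.80 ± 0.054), whereas Junb (-1.52 ± 0.074) and the kinase gene Pim3 (-1.23 ± 0.065) fell most. Over the 6 libraries Tfcp2l1 was the most abundant in TPM. It led in TKO-2i (146.8 TPM), but in TKO-serum (39.8 TPM) Pim3 was the most abundant, at 118.0 TPM.

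**Figure D3:**
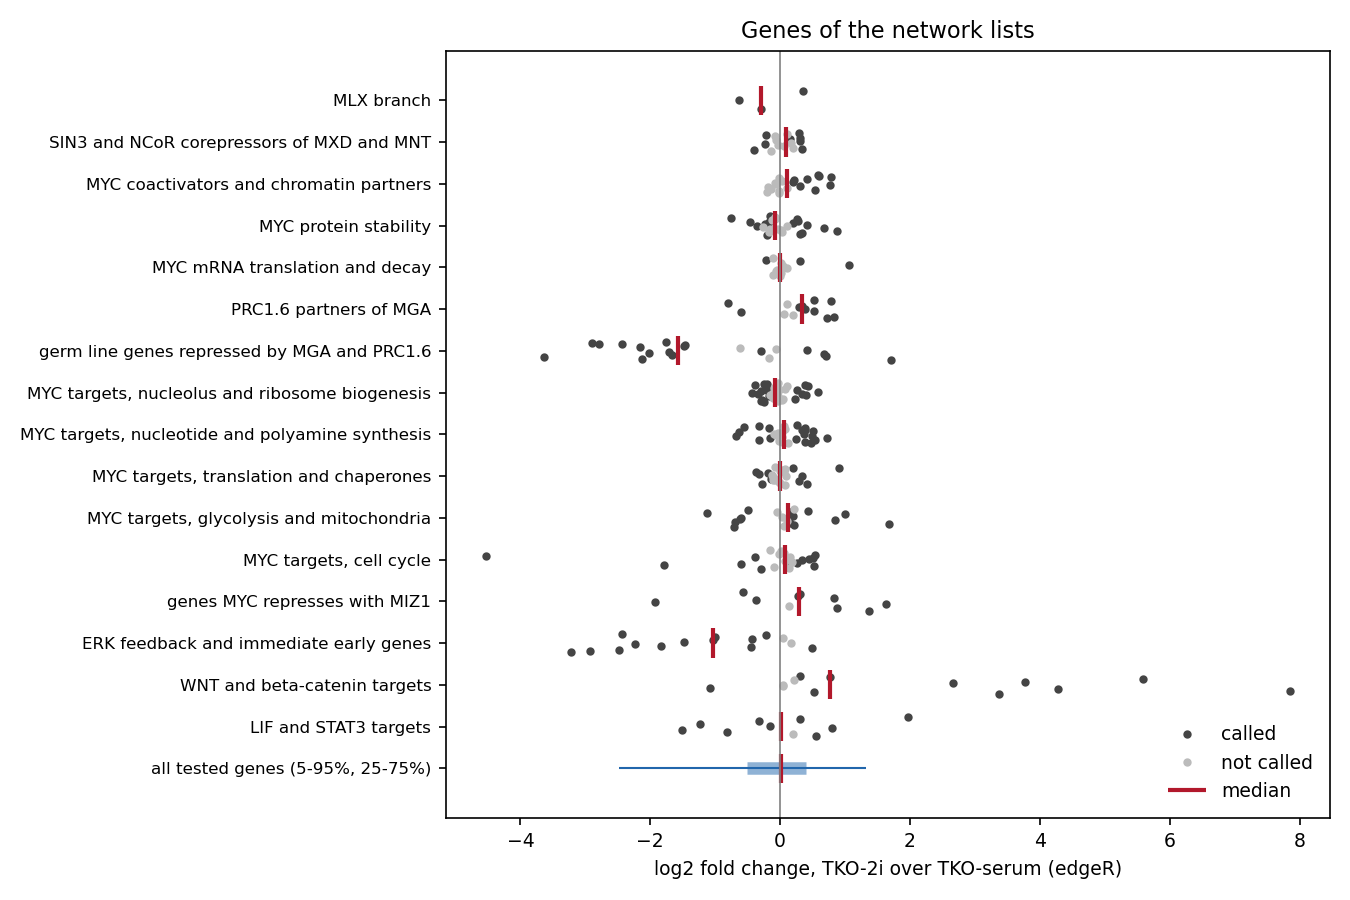
Log2 fold change of TKO-2i over TKO-serum (edgeR) for each tested gene of 16 lists, called genes in dark grey and genes not called in light grey, with the median of each list in red. The bottom row shows all 18177 tested genes as the range from the 5th to the 95th percentile (thin line) and from the 25th to the 75th (thick line). The medians of the 5 lists of MYC targets lie between -0.08 and 0.12 on counts, and that of all tested genes at 0.01.

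Promoter sequences of RefSeq on GRCm38.p6, from 250 bases before to 50 after the gene start in RefSeq, were found for 9 of the 10 genes, 11 sequences in all, and no entry was matched for Myc. They were searched for the E-box CACGTG, to which dimers of MAX with its partners bind and which reads the same on either strand. They were also searched for its variant with a C in place of the T, CACGCG, on both strands. The E-box was present in 3 of the 9 genes, where 8.09% of 27025 genes and 7.15% of their 32851 promoters hold it. The variant was present in 2 of the 9, Mycl and Mga, where 10.5% of genes and 9.27% of promoters hold it. The 11 sequences held 56% to 76.7% G and C, and the shares over all genes and promoters were not matched for this content. The matches are shown because the network's own proteins bind these letters, with the motif in capitals and 30 bases read 5′ to 3′ on the strand of the gene.
Max (chr12:76962234-76962263, minus strand, motif from 3 bases before the gene start): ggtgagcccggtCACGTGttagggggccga
Mnt (chr11:74830789-74830818, plus strand, motif from 123 bases before): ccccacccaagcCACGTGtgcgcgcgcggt
Mxd4 (chr5:34187912-34187941, minus strand, motif from 219 bases before): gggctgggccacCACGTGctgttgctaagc
Mycl (chr4:122995899-122995928, plus strand, motif from 20 bases before): ccaagccccgggCACGCGacgagatataaa
Mga (chr2:119897195-119897224, plus strand, motif from 21 bases before): agctggtaggagCGCGTGcgcagtgacgtg
None of the 5 motifs lay in an exon of its gene in GENCODE M21, whereas the distances above are to the gene start in RefSeq. The Max motif, from 3 bases before that start, runs past it into the transcribed part of the RefSeq entry. Max and Mxd4 were lower in TKO-2i, Mnt was higher, and Mycl and Mga were not called, so genes with a match moved in both directions. A match is a description of the letters and was not tested as a binding site.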

How the data were processed

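The 10 genes and the lists were chosen with earlier results of these data known. The authors deposited, for each library, an estimated count and a TPM per transcript, with transcript lengths, in the columns that salmon writes. The quantifier's version, index and strand setting are not given in the sources used here, and the submitters' processing notes name the build mm10. The estimated counts deposited by the authors carry no scaling between libraries, and most are fractions, since reads shared between transcripts are divided among them. TPM, as deposited by the authors, takes transcript length into account and has the same total in each library.

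Of 136288 transcripts, 136100 were matched to GENCODE M21, and estimated counts and TPM were summed per gene. Count sums were rounded and tested with edgeR 4.0.16 in R 4.3.3 (filterByExpr, TMM, glmQLFit and glmQLFTest, medium only, Benjamini-Hochberg adjustment over 18177 genes). The SE of a log2 fold change is its size divided by the square root of F. A gene was called at an adjusted p under 0.05. The steps were tested on simulated data in which, of 18177 genes, 100 changed by a log2 fold change of 1 in size and 100 by 2. The edgeR fit recovered 81 and 96 of these, with 13 false calls. With so few genes changed, the simulation did not check the steps where most genes differ, as they do here. A gene at 3 counts has 0.0578 to 0.0784 CPM, which covers counting error only. Alternatives were DESeq2 1.42.0, its size factors in edgeR, other filters on low counts, limma 3.58.1 on log2(TPM + 1) and log2(TPM + 0.1), counts rebuilt from TPM and length, protein-coding genes only, the replicate block, each library left out, the chromosome median subtracted, and estimated counts in place of TPM for the family sums. Python 3.11 with numpy and pandas was used for sums and lists.

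The text names the 10 genes, Dnmt1, Dnmt3a, Dnmt3b, Dnmt3l and Prdm14, and of each list the tested gene with the highest mean TPM and the 2 largest rises and 2 largest falls among called genes that averaged 1 CPM or more and whose media did not overlap. It also names the most abundant gene of each cell type list and the 5 genes nearest in profile to Myc, Mycn and Mycl. Transcripts are named where they held at least 10% of a gene in either medium. A comparison of protein sequences was not made.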

Additional observations from a re-analysis of the deposited data

How the results depend on the processing

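Across the alternatives that give calls, 9804 to 12568 genes were called, against 11361, and 6 to 8 of the 10 genes, with 5 to 7 lower and Mnt alone higher. Subtracting the chromosome median gives no calls and left 0.08 for Mnt, where its SE is 0.060. The log2 fold change of Mga, 0.05, changed sign to -0.0457 with limma on log2(TPM + 1) and to -0.0465 on log2(TPM + 0.1), and with 1 library left out ran from -0.16 (without TKO-2i replicate 2) to 0.16 (without TKO-2i replicate 1). It was also just under 0 without TKO-serum replicate 1, and Mga was called in none of these. Mxd1 was not called with counts rebuilt from TPM and length (-0.25) or with limma (-0.26 and -0.34), beside the libraries named above. Mxd3 was called with limma (-0.33 and -0.36) and with the replicate block (-0.25). Libraries of the same replicate number were not always most alike after the medium was removed (r = 0.349, 0.541 and 0.021 over 13997 genes), so the numbers were not used as pairs. Limma on TPM gave fewer higher genes in the MLX branch (0 against 1), SIN3 and NCoR corepressors (2 against 5), MYC protein stability (3 against 8), ribosome biogenesis (4 against 7) and glycolysis and mitochondria (4 against 9), and more lower genes in MYC mRNA translation and decay (3 against 1). On log2(TPM + 1), limma placed the median over all tested genes at -0.06, and several list medians changed sign or size. Those of SIN3 and NCoR corepressors (-0.03), MYC mRNA translation and decay (-0.08), nucleotide and polyamine synthesis (-0.05), glycolysis and mitochondria (-0.01), the cell cycle (-0.01) and LIF and STAT3 targets (-0.13) turned negative, and those of ribosome biogenesis and of translation and chaperones were -0.19 and -0.07. With 1 library left out, list medians near 0 moved or changed sign, as in translation and chaperones (-0.05 to 0.04), LIF and STAT3 targets (-0.02 to 0.06) and MYC mRNA translation and decay (-0.02 to 0.02), and without TKO-2i replicate 2 they were -0.01 in ribosome biogenesis, 0.11 in nucleotide and polyamine synthesis and 0.12 in the cell cycle. That of SIN3 and NCoR corepressors was 0.04 without TKO-2i replicate 1, and that of the cell cycle 0.04 without TKO-serum replicate 2. With estimated counts in place of TPM, MYC over Max was 1.53 times higher in serum, against 1.75. The MYC sum was 2.09 times higher, against 2.23, but these counts carry no scaling between libraries, so this pair is not a like comparison. Each medium has 3 libraries of 1 cell line, and RNA level says nothing of protein.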
